A study of Mus musculus with 12 samples.

Results

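Of the 32742 genes in the table, 10 are described here: the alpha tubulin genes Tuba1a, Tuba1b and Tuba1c, the beta tubulin genes Tubb2a, Tubb2b, Tubb3, Tubb4b, Tubb5 and Tubb6, and Stmn1, which encodes stathmin 1. They were found in the table by gene symbol, and each symbol had 1 row. RNA was sequenced from primary astrocytes grown from the midbrain of newborn mice, in mixed glial cultures that were shaken to remove other cell types and are labelled Day 14. The mice carry the labels WT or Arrb2-KO, a knockout of the gene that encodes beta-arrestin 2, an adaptor of G protein-coupled receptors. Cultures of each genotype received PBS or MPP+ at 500 µM for 24 h, which gave 4 groups of 3 samples. MPP+, formed in the brain from the neurotoxin MPTP, blocks mitochondrial complex I. Neither the number of mice behind a sample nor the design of the knockout allele is given in the labels.

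Microtubules are polymers of alpha and beta tubulin dimers, and each of these proteins comes from several genes whose products, the isotypes, differ mostly in the acidic tail at the C terminus. Cells hold the level of tubulin messenger RNA through autoregulation: when free dimers accumulate, the ribosome-bound factor TTC5 recognises the first residues of a new tubulin chain and the messenger RNA is degraded. Stathmin 1 binds free dimers and promotes the disassembly of microtubules, and its phosphorylation releases them. In the brain, Tuba1a and Tubb2b are known from neuronal migration, Tubb3 is widely used as a neuronal marker, and Tubb4b is a main beta tubulin of cilia.

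The starts of the tubulin coding sequences encode the residues that autoregulation reads. The first 30 coding bases of the GENCODE M21 transcripts (build GRCm38) are therefore shown for 9 of the genes. They run 5′ to 3′ on the coding strand, with the first 4 codons in capitals. Stmn1 is not a tubulin gene and is shown for comparison.
Tuba1a: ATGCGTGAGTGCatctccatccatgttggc
Tuba1b: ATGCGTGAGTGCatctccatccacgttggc
Tuba1c: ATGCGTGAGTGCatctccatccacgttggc
Tubb2a: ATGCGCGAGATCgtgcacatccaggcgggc
Tubb2b: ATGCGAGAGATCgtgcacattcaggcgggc
Tubb3: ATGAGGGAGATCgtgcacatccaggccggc
Tubb4b: ATGAGGGAGATCgtgcacctgcaggctggg
Tubb5: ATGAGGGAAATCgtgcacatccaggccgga
Stmn1: ATGGCATCTTCTgatattcaggtgaaagag
The 3 alpha tubulin genes shared all 12 of these bases, as did Tubb3 and Tubb4b, while Tubb2a, Tubb2b and Tubb5 each had a run of their own. By the standard genetic code, the first 4 codons of the beta genes shown all read Met-Arg-Glu-Ile. These base differences thus leave the first residues unchanged.

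The ends of the coding sequences encode the C-terminal tails. Their last 60 bases are shown for the close copies Tubb2a and Tubb2b, with the bases of Tubb2b that differ from Tubb2a in capitals, and for Tubb3 and Tubb4b with the stop codon in capitals.
Tubb2a: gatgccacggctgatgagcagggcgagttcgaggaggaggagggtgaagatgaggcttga
Tubb2b: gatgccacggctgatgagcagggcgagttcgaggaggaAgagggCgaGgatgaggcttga
Tubb3: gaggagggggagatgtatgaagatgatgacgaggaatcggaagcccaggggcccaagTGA
Tubb4b: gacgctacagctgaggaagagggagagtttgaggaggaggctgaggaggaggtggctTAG
Tubb2b differed from Tubb2a at 3 of these 60 bases and at 47 of 1338 coding bases, and Tuba1b from Tuba1a at 23 of 1356 coding bases. Read in frame by the standard genetic code, the 3 marked bases leave the residues unchanged. The stretches shown for Tubb2a and Tubb2b thus encode the same tail. The coding sequences of Tubb3, Tubb4b, Tubb5 and Tubb6 were 80.2% to 85.7% identical to each other and to those of the other beta genes.

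This likeness bears on the counts. Of all runs of 100 bases in the transcript, 65.9% of those of Tuba1a, 73.0% of those of Tuba1b and 53.4% of those of Tuba1c also occurred in a transcript of another gene. The share was 36.9% for Tubb2a, 27.8% for Tubb2b, 30.6% for Tubb4b, which has processed pseudogenes, and 26.1% for Stmn1. It was 0 for Tubb3, Tubb5 and Tubb6. The read length and the handling of reads that match several genes are not stated in these sources, so the split between Tuba1a, Tuba1b and Tuba1c, between Tubb2a and Tubb2b, and between Tubb4b or Stmn1 and their copies is uncertain, while Tubb3, Tubb5 and Tubb6 shared no run of 100 or 150 bases. With runs of 50 bases, 3 of 2600 in Tubb5 occurred in another gene, and 0 in Tubb3 and Tubb6.

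The 3 alpha genes described here lie on chromosome 15 (GRCm38): Tuba1b (ENSMUSG00000023004) at 98931425 to 98934565 and Tuba1a (ENSMUSG00000072235) at 98949837 to 98953703 on the minus strand, and Tuba1c (ENSMUSG00000043091) at 99029891 to 99038110 on the plus strand. Tubb2a (ENSMUSG00000058672) at 34074274 to 34078007 and Tubb2b (ENSMUSG00000045136) at 34126748 to 34130466 are neighbours on the minus strand of chromosome 13. Tubb3 (ENSMUSG00000062380) lies on chromosome 8 at 123411424 to 123422015, Tubb4b (ENSMUSG00000036752) on chromosome 2 at 25222160 to 25224702 and Tubb5 (ENSMUSG00000001525), the class I beta tubulin of most cells, on chromosome 17 at 35833921 to 35838306. Tubb6 (ENSMUSG00000001473) lies on chromosome 18 at 67390717 to 67402749, and Stmn1 (ENSMUSG00000028832) on chromosome 4 at 134468320 to 134473843.

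Libraries held 64249029 to 69865569 counts, and no 2 libraries were identical. Arrb2 was measured at 21.7 to 31.0 CPM in the WT libraries with PBS and at 13.8 to 16.1 CPM in the Arrb2-KO libraries with PBS, a log2 difference of -0.83 ± 0.16 (standard error, edgeR adjusted p = 0.0084), so the gene was reduced and not at 0. WT MPP+ replicate 1 stood apart from the other 2 WT MPP+ libraries on principal component 3 (34.4 against -51.9 and -27.0). The summed level of 4 Y-linked genes was 0 to 0.230 CPM in the WT libraries and 39.4 to 131 CPM in the Arrb2-KO libraries, so sex and genotype cannot be told apart. The summed level of 10 astrocyte markers was 5811 to 6656 CPM in WT with PBS and 1825 to 2419 CPM with MPP+, and 4271 to 5395 CPM in Arrb2-KO with PBS and 1626 to 1931 CPM with MPP+.

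In the WT cultures with PBS, Tuba1a was the most abundant of the 10 genes per length and ranked 34 among all genes by mean FPKM, the read count per length and library size that the authors deposited. The order by mean FPKM was Tuba1a (700.1), Tuba1b (329.5), Tubb2b (287), Tubb2a (194), Tubb4b (185), Tubb5 (116), Tuba1c (84.5), Stmn1 (58.5), Tubb6 (44.6) and Tubb3 (9.40), and the ranges of neighbours in this order did not overlap. In WT with MPP+ the order was Tuba1a, Tuba1b, Tubb4b, Tubb2a, Tuba1c, Tubb5, Tubb2b, Stmn1, Tubb6 and Tubb3. There the ranges of Tuba1a and Tuba1b overlapped, and so did those of each neighbouring pair from Tubb2a to Tubb2b. Tubb2b moved from rank 3 to rank 7 of the 10 and from rank 86 to rank 1175 of all genes. In Arrb2-KO with PBS, Tubb2b came before Tuba1b, with overlapping ranges, and the ranges of Stmn1 and Tubb6 overlapped as well. With MPP+ the Arrb2-KO order was Tuba1a, Tuba1b, Tubb4b, Tubb2a, Tubb2b, Tubb5, Tuba1c, Stmn1, Tubb6 and Tubb3, and the ranges overlapped from Tubb4b to Tubb2b and between Stmn1 and Tubb6.

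**Figure D1:**
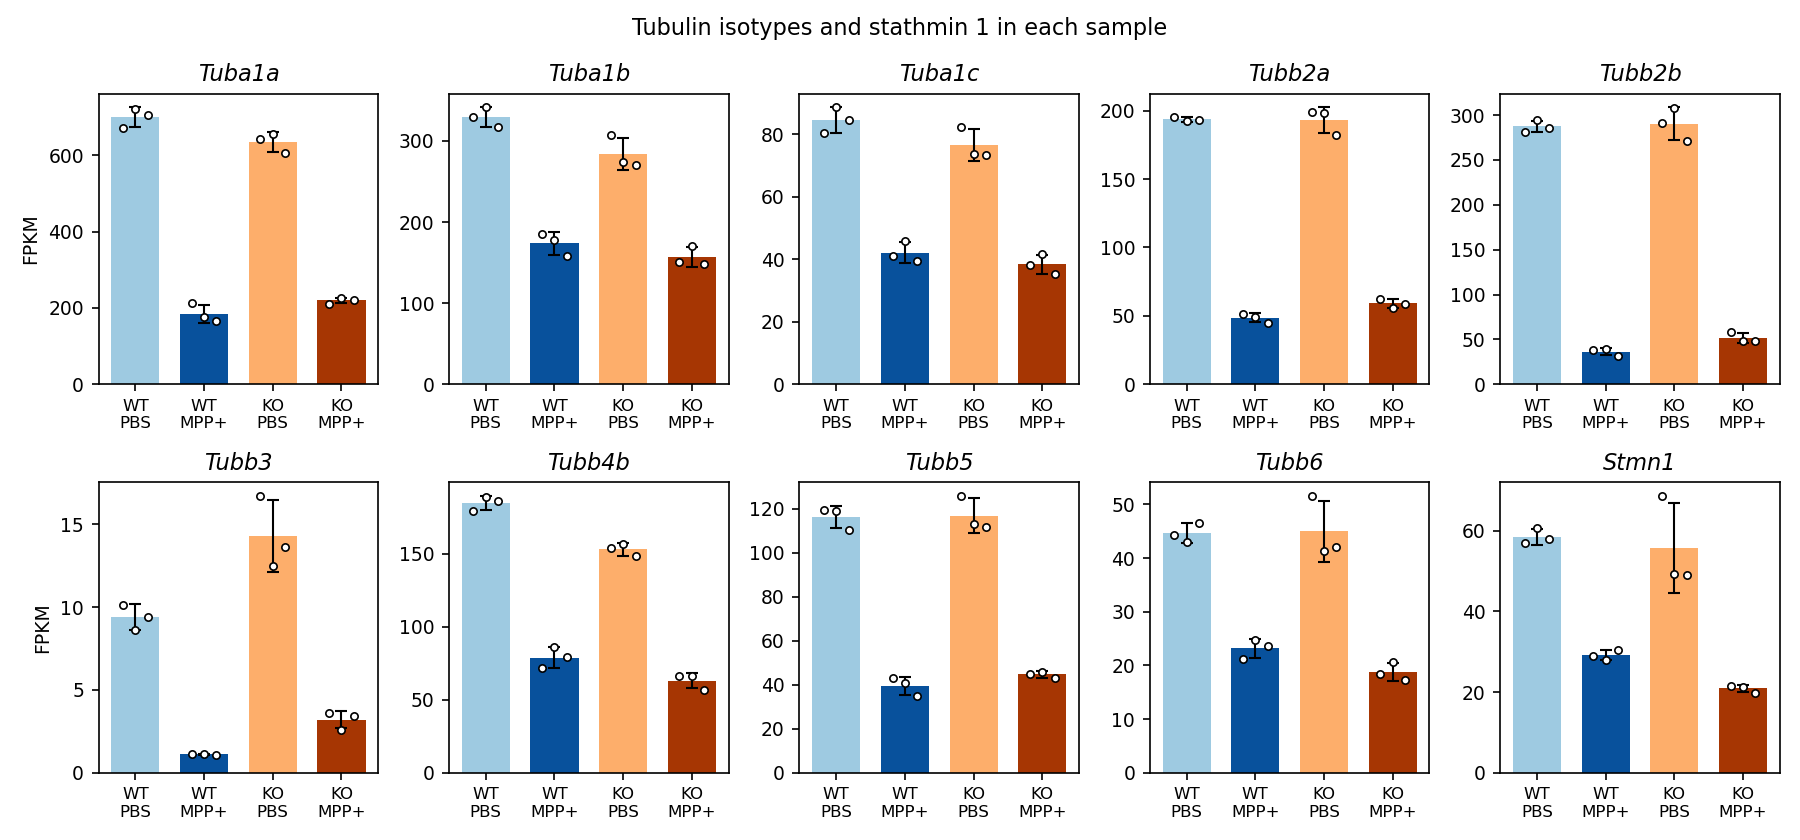
FPKM (y axis, linear from 0) of the 10 genes in each of the 4 groups; points are the 3 samples, bars their mean and error bars 1 SD. In each gene, the MPP+ samples lie below the PBS samples of the same genotype, and Tubb3 and Tubb2b show the largest proportional drop in WT.

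MPP+ was followed by lower RNA of all 10 genes in both genotypes. The call rule was edgeR's quasi-likelihood test with a Benjamini-Hochberg adjusted p under 0.05 over 21129 tested genes, and all 10 passed the filter on low counts. The 10 genes were chosen with earlier results of these data known. Counts of the 10 beside all tested genes, here and below, are therefore a description. All 10 were called lower in WT, where 55.2% of all tested genes were called, 28.4% lower and 26.8% higher. All 10 were called lower in Arrb2-KO, where 47.7% were called, 24.7% lower and 23.1% higher. With a drop of at least 2-fold added, 8 of 10 met the call in WT (15.9% of all tested genes) and 9 of 10 in Arrb2-KO (12.5%). The median log2 fold change of the 10 was -1.43 in WT, against -0.04 over all tested genes, and -1.48 in Arrb2-KO, against -0.04. For each of the 10, the 3 MPP+ samples lay below the 3 PBS samples, which was so for 32.8% of all genes in WT and for 31% in Arrb2-KO. These are RNA levels relative to the rest of each library, so a change in the total RNA of a culture cannot be seen. The samples are bulk samples, in which fewer cells of a type and less RNA per cell cannot be told apart.

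Among the alpha tubulins, Tuba1a fell most. It held 672, 723 and 706 FPKM in the WT samples with PBS and 212, 175 and 166 FPKM with MPP+. In Arrb2-KO it held 643, 657 and 607 FPKM with PBS and 212, 227 and 221 FPKM with MPP+. The PBS and MPP+ groups were far apart in both genotypes. The log2 fold change was -1.96 ± 0.07 in WT (standard error, edgeR adjusted p = 3.73e-09), a 3.90-fold drop, and -1.61 ± 0.07 in Arrb2-KO (edgeR adjusted p = 1.78e-08).

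Tuba1b, the alpha tubulin of most tissues, fell less than Tuba1a. Its WT samples held 329, 341 and 318 FPKM with PBS and 186, 178 and 158 FPKM with MPP+. The Arrb2-KO samples held 307, 275 and 269.8 FPKM with PBS and 151, 171 and 148 FPKM with MPP+. The log2 fold changes were -0.96 ± 0.08 in WT (edgeR adjusted p = 9.32e-07) and -0.94 ± 0.08 in Arrb2-KO (edgeR adjusted p = 1.66e-06), so the estimates in the 2 genotypes differed by less than their standard errors. Tuba1c, a minor copy, followed Tuba1b closely, from 80.4 to 88.6 FPKM in WT with PBS to 39.5 to 45.9 FPKM with MPP+, with log2 fold changes of -1.04 ± 0.08 in WT (edgeR adjusted p = 1.12e-06) and -1.07 ± 0.08 in Arrb2-KO (edgeR adjusted p = 1.27e-06).

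The ratio of Tuba1a to Tuba1b FPKM put these neighbours in one number. It was 2.04, 2.12 and 2.22 in WT with PBS and 1.14, 0.986 and 1.05 with MPP+. In Arrb2-KO it was 2.09, 2.39 and 2.25 with PBS and 1.40, 1.33 and 1.49 with MPP+. All MPP+ samples lay below all PBS samples, and the Arrb2-KO samples with MPP+ lay above the WT samples with MPP+. This ratio rests on a split of reads between close copies, as described above.

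Among the 6 beta tubulins described here, the falls ranged from 1.97-fold (Tubb6) to 8.68-fold (Tubb3) in WT. Tubb2b held 282, 294 and 286 FPKM in the WT samples with PBS and 37.995, 39.3 and 32.0 FPKM with MPP+. In Arrb2-KO it held 291, 308 and 271 FPKM with PBS and 58.0, 48.2 and 48.1 FPKM with MPP+. The PBS groups overlapped between genotypes, and the MPP+ samples of Arrb2-KO lay above those of WT. The log2 fold change was -3.02 ± 0.10 in WT (edgeR adjusted p = 1.73e-09) and -2.57 ± 0.10 in Arrb2-KO (edgeR adjusted p = 5.09e-09).

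Tubb2a, its neighbour on chromosome 13, held 196, 192 and 193 FPKM in WT with PBS and 51.6, 49.2 and 45.0 FPKM with MPP+. In Arrb2-KO it held 199, 198 and 182 FPKM with PBS and 62.1, 56.1 and 58.9 FPKM with MPP+. The fall was smaller than that of Tubb2b, with log2 fold changes of -2.04 ± 0.06 in WT (edgeR adjusted p = 1.05e-09) and -1.79 ± 0.06 in Arrb2-KO (edgeR adjusted p = 2.38e-09). The ratio of Tubb2b to Tubb2a FPKM was 1.44, 1.53 and 1.48 in WT with PBS and 0.736, 0.800 and 0.712 with MPP+, so their order was inverted. In Arrb2-KO the ratio was 1.47, 1.56 and 1.49 with PBS and 0.933, 0.860 and 0.816 with MPP+, with the same inversion in each sample.

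Tubb3 was the least abundant of the 10 and fell most in WT. It held 10.1, 8.62 and 9.44 FPKM in the WT samples with PBS and 1.14, 1.12 and 1.06 FPKM with MPP+, the latter from 152, 153 and 142 counts. In Arrb2-KO it held 16.7, 12.5 and 13.7 FPKM with PBS and 3.59, 2.61 and 3.41 FPKM with MPP+. None of the 4 groups overlapped another. The log2 fold change was -3.12 ± 0.15 in WT (edgeR adjusted p = 2.64e-08) and -2.24 ± 0.14 in Arrb2-KO (edgeR adjusted p = 2.68e-07).

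The summed level of 16 neuronal markers was also lower with MPP+. It was 492 to 607 CPM in WT with PBS and 241 to 269 CPM with MPP+, and 547 to 646 CPM in Arrb2-KO with PBS and 289 to 321 CPM with MPP+. Of the 13 neuronal markers tested, 0 were called higher and 7 lower with MPP+ in WT, and 1 higher and 6 lower in Arrb2-KO. In each genotype, 6 were not called. The list holds Stmn2 and Map2, which make up most of its sum: Stmn2 had a mean of 283 CPM in WT with PBS and 109 CPM with MPP+, and Map2 216 CPM and 118 CPM. The neuronal nuclear antigen gene Rbfox3 was at 0.0781 CPM and the synaptic gene Snap25 at 0.118 CPM in WT with PBS in the mean. Dcx, a marker of young neurons, was at 0.328 CPM in WT with PBS and at 0 counts in all samples with MPP+. Syt1, a synaptic vesicle gene, was called lower with MPP+ in WT (log2 fold change -2.89 ± 0.25, edgeR adjusted p = 2.09e-06). The part of the neuronal markers in the change of Tubb3 was not tested.

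Tubb4b, Tubb5 and Tubb6 fell less. Tubb4b held 179, 189 and 186 FPKM in WT with PBS and 71.4, 85.8 and 79.4 FPKM with MPP+, and 154, 157 and 148 FPKM in Arrb2-KO with PBS against 66.2, 66.2 and 56.9 FPKM with MPP+. Its log2 fold changes were -1.26 ± 0.09 in WT (edgeR adjusted p = 2.72e-07) and -1.36 ± 0.09 in Arrb2-KO (edgeR adjusted p = 2.39e-07). The summed level of 7 ependymal markers, which mark ciliated cells, was 317 to 395 CPM in WT with PBS and 215 to 230 CPM with MPP+. In Arrb2-KO it was 174 to 247 CPM with PBS and 152 to 189 CPM with MPP+. Most counts of the list came from Foxj1 (156745 over all samples). Of the 6 markers tested, 1 was called higher and 5 lower with MPP+ in WT, and 1 higher and 3 lower in Arrb2-KO. The part of these markers in the values of Tubb4b was not tested.

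Tubb5 held 119.7, 119 and 111 FPKM in WT with PBS and 42.9, 41.0 and 35.0 FPKM with MPP+. The Arrb2-KO samples lay close by, at 112 to 126 FPKM with PBS and 43.0 to 46.0 FPKM with MPP+. Its log2 fold changes were -1.59 ± 0.08 (edgeR adjusted p = 2.27e-08) and -1.46 ± 0.08 (edgeR adjusted p = 5.14e-08). Tubb6 held 44.3, 42.9 and 46.6 FPKM in WT with PBS and 21.2, 24.7 and 23.7 FPKM with MPP+, and in Arrb2-KO 51.6, 41.3 and 42.0 FPKM against 18.4, 20.6 and 17.3 FPKM. Its log2 fold changes were -0.98 ± 0.11 (edgeR adjusted p = 1.01e-05) and -1.34 ± 0.11 (edgeR adjusted p = 1.3e-06), so that Tubb6 was among the least changed in WT.

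Stmn1 held 56.9, 60.7 and 57.9 FPKM in WT with PBS and 29.0, 28.03 and 30.4 FPKM with MPP+. In Arrb2-KO it held 68.6, 49.3 and 49.0 FPKM with PBS, where replicate 1 was the high sample, and 21.6, 21.3 and 19.8 FPKM with MPP+. Its log2 fold change was -1.04 ± 0.11 in WT (edgeR adjusted p = 1.2e-05) and -1.49 ± 0.12 in Arrb2-KO (edgeR adjusted p = 1.09e-06). Stathmin 1 is abundant in dividing cells, and the summed level of 10 cycling-cell markers was 833 to 835 CPM in WT with PBS and 72.9 to 91.9 CPM with MPP+, and 625 to 757 CPM in Arrb2-KO with PBS and 50.04 to 54.2 CPM with MPP+. All 10 of these markers were called lower in both genotypes, and their part in the change of Stmn1 was not tested.

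**Figure D2:**
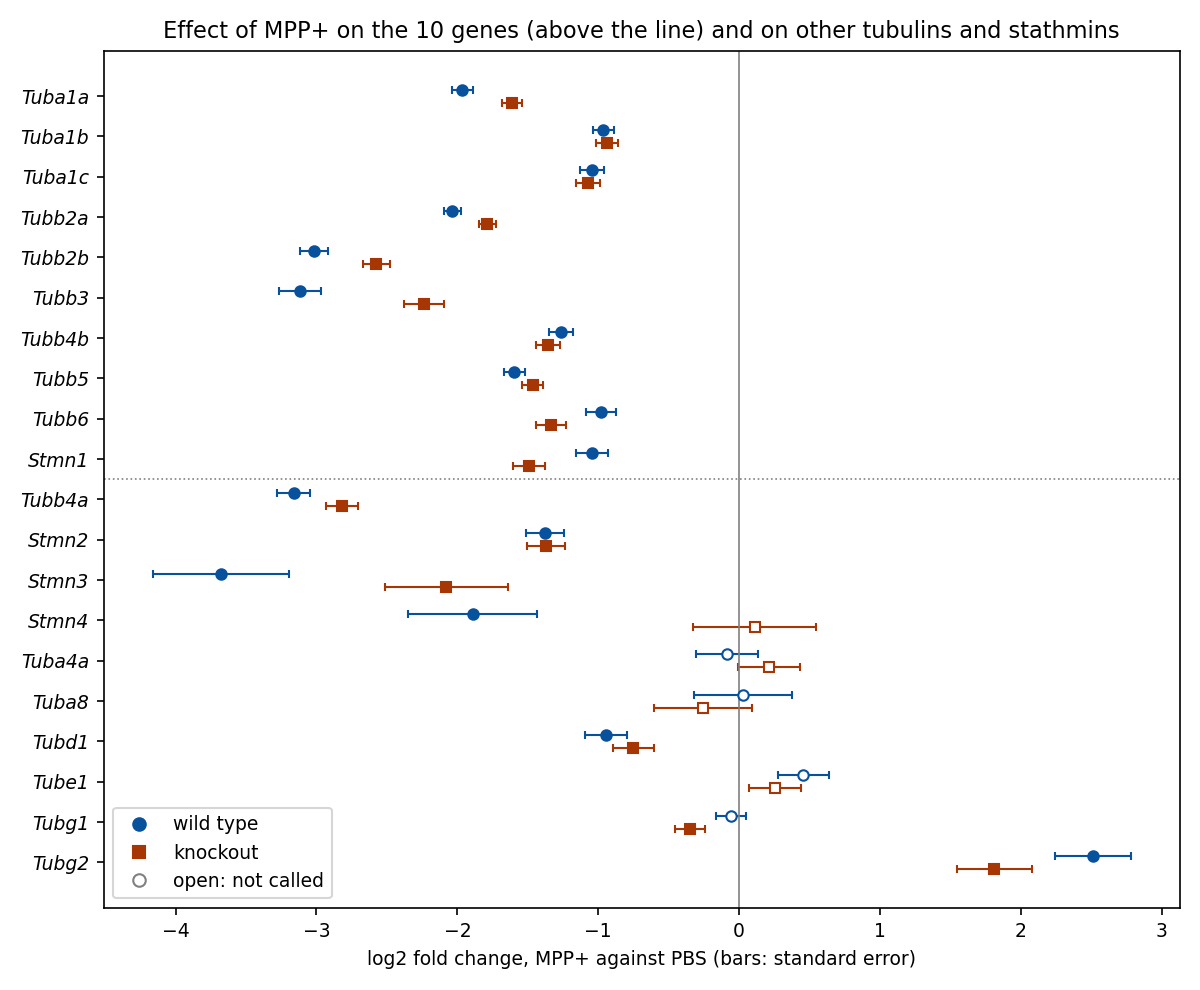
Log2 fold change with MPP+ against PBS (x axis) for the 10 genes, above the dotted line, and for the other tubulin and stathmin genes tested, below it; bars are standard errors, circles WT, squares Arrb2-KO, open symbols not called. All 10 lie left of 0, from -0.94 to -3.12, while Tubg2 lies right of 0 in both genotypes.

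The unequal falls changed the make-up of the tubulin RNA. The alpha sum was taken over 6 genes (Tuba1a, Tuba1b, Tuba1c, Tuba4a, Tuba8 and Tubal3) and the beta sum over 8 (Tubb1, Tubb2a, Tubb2b, Tubb3, Tubb4a, Tubb4b, Tubb5 and Tubb6). The summed FPKM of the alpha genes was 1119 ± 35.2 in WT with PBS and 405 ± 37.5 with MPP+ (SD, n = 3), so 36.2% was left, and that of the beta genes 854 ± 8.66 and 229.9 ± 12.7, with 26.9% left. In Arrb2-KO, 42.0% of the alpha sum and 29.3% of the beta sum were left. The ratio of the alpha to the beta sum was 1.28 to 1.34 in WT with PBS and 1.65 to 1.94 with MPP+, and 1.19 to 1.22 and 1.59 to 1.84 in Arrb2-KO, with no overlap between PBS and MPP+. The 10 genes together held 0.442% to 0.462% of all counts in WT with PBS and 0.136% to 0.154% with MPP+.

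Within the alpha sum, Tuba1a made up 62.6% ± 0.776 in WT with PBS and 45.5% ± 2.21 with MPP+ (SD, n = 3), and Tuba1b 29.5% ± 0.881 and 42.9% ± 1.16. In Arrb2-KO, the share of Tuba1a was 63.5% ± 1.58 with PBS and 52.3% ± 1.55 with MPP+. Within the beta sum, the share of Tubb2b was 33.6% ± 0.436 in WT with PBS and 15.8% ± 1.02 with MPP+, and that of Tubb4b 21.6% ± 0.406 and 34.3% ± 2.70. The first place among the beta genes thus passed from Tubb2b to Tubb4b. In Arrb2-KO, Tubb2b held 35.1% ± 1.15 with PBS and 21.2% ± 1.38 with MPP+, and Tubb4b 18.5% ± 0.471 and 26.0% ± 1.31. The share of Tubb2a moved little, from 22.7% ± 0.418 to 21.1% ± 1.28 in WT, while that of Tubb6 was 5.23% ± 0.255 with PBS and 10.1% ± 0.804 with MPP+. No test was run on the shares.

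**Figure D3:**
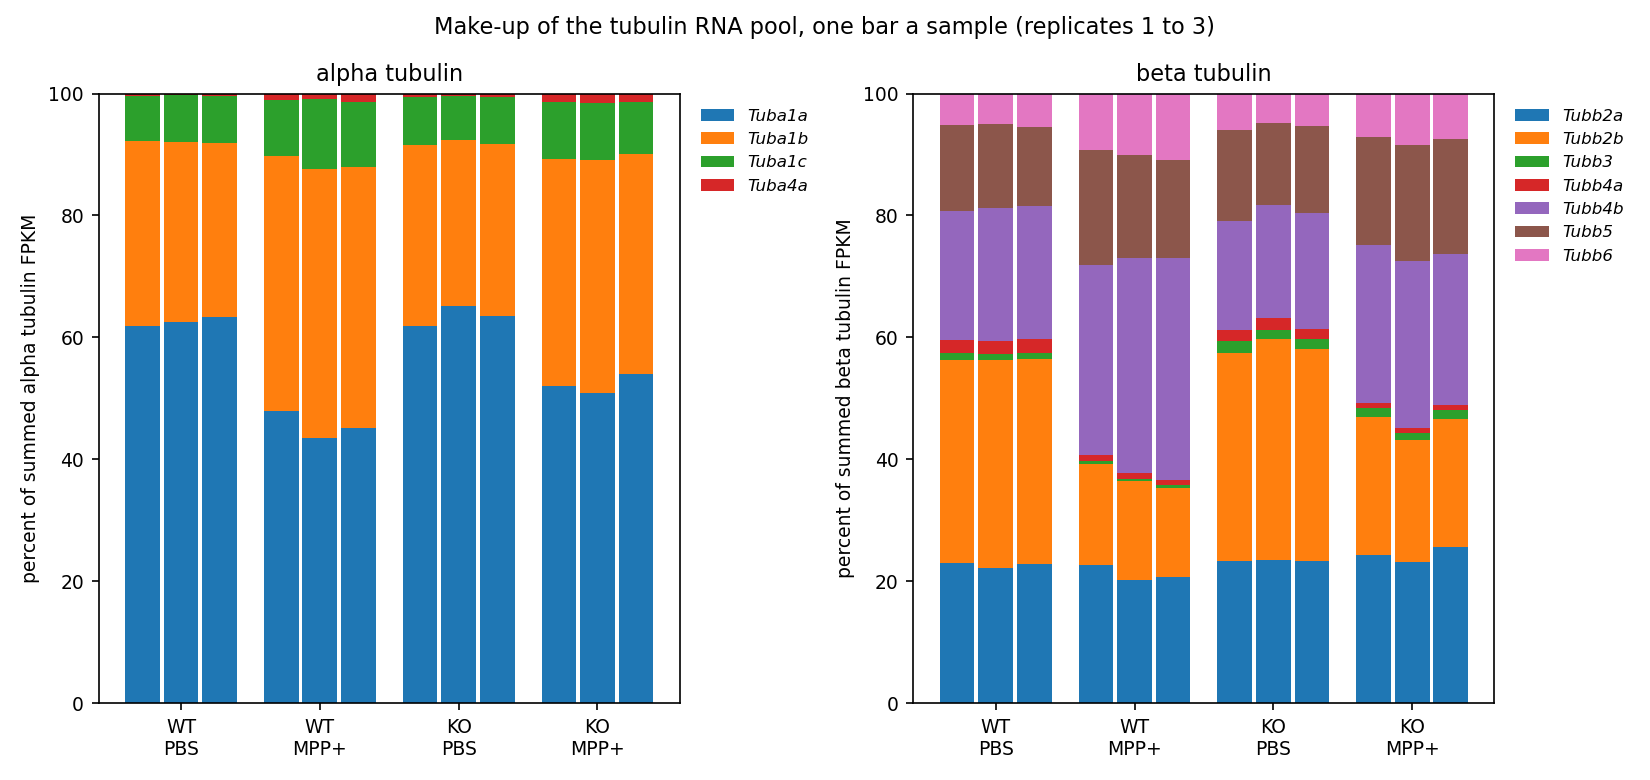
Percent of the summed alpha (left) and beta (right) tubulin FPKM (y axis, linear from 0) taken by each gene, 1 stacked bar per sample in the 4 groups. The Tuba1a share is 62.6% with PBS and 45.5% with MPP+ in WT, and the Tubb2b share 33.6% and 15.8%.

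Between genotypes, few of these genes differed with PBS. Of the 10, 1 was called, against 11% of tested genes (5.34% higher and 5.66% lower). This was Tubb3, which was higher in Arrb2-KO (log2 difference 0.65 ± 0.14, edgeR adjusted p = 0.0118). Of all calls in this comparison 48.6% were higher, and 35.5% with libraries scaled by total counts. The call was lost without WT PBS replicate 2 or without Arrb2-KO PBS replicate 1, with log2 differences of 0.51 to 0.73 and an adjusted p of up to 0.0638 over the 12 refits that leave out 1 library. Of the 13 neuronal markers tested, 1 was called with PBS, Syt1, which was higher in Arrb2-KO (log2 difference 0.94 ± 0.23, edgeR adjusted p = 0.0236). Tubb4b lay lower in each Arrb2-KO sample than in each WT sample, as did 16.9% of tested genes, but was not called (log2 difference -0.22 ± 0.08, edgeR adjusted p = 0.124). The log2 differences of the other 8 genes lay between -0.17 (Tuba1b) and 0.06 (Tubb2b), with standard errors of 0.06 to 0.11.

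With MPP+, 6 of the 10 differed between genotypes, against 16.9% of tested genes called, 7.87% higher and 9% lower. Tubb3 was higher in Arrb2-KO (log2 difference 1.54 ± 0.15, edgeR adjusted p = 0.000111), as were Tubb2b (0.51 ± 0.09, edgeR adjusted p = 0.00401), Tubb2a (0.29 ± 0.06, edgeR adjusted p = 0.00642) and Tuba1a (0.26 ± 0.07, edgeR adjusted p = 0.0261). Both this comparison and that of MPP+ with PBS in WT use the WT MPP+ samples. Stmn1 (log2 difference -0.47 ± 0.11, edgeR adjusted p = 0.0173) and Tubb4b (-0.31 ± 0.08, edgeR adjusted p = 0.0277) were lower in Arrb2-KO. On the CPM scale each of these differences held for all 3 samples against all 3, as it did for 15.6% of tested genes in the higher and 18.3% in the lower direction, while in FPKM the Tuba1a samples overlapped. Tubb6 (-0.30 ± 0.10, edgeR adjusted p = 0.0762), Tubb5 (0.19 ± 0.07, adjusted p = 0.111), Tuba1b (-0.14 ± 0.08, adjusted p = 0.246) and Tuba1c (-0.13 ± 0.08, adjusted p = 0.351) were not called.

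Some of these calls depended on which libraries were used. Tubb2b, Tubb2a and Tubb3 were called without any 1 of the 12 libraries. Stmn1 was lost without WT MPP+ replicate 3 or Arrb2-KO MPP+ replicate 3 (adjusted p up to 0.0702). Tuba1a was lost without replicate 2 or 3 of either MPP+ group (adjusted p up to 0.0985). It was also lost with libraries scaled by total counts, with limma at either pseudocount and in a fit of only the 2 groups (adjusted p up to 0.0845). Tubb4b was lost without WT PBS replicate 3, WT MPP+ replicate 2 or 3, or Arrb2-KO MPP+ replicate 3 (adjusted p up to 0.108), and also without the low-count filter and in a fit of only the 2 groups (adjusted p up to 0.117). Without WT MPP+ replicate 1, the library that stands apart, 7 of the 10 were called, with Tubb6 added.

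Other cell type markers differed between genotypes as well. The summed level of 6 fibroblast and meningeal markers was 213 to 573 CPM in WT and 1226 to 1792 CPM in Arrb2-KO with MPP+, and 389 to 1146 CPM and 1400 to 1756 CPM with PBS. All 6 were called higher in Arrb2-KO with MPP+, and 2 of them with PBS. Of the 13 neuronal markers tested, 2 were higher in Arrb2-KO with MPP+, among them Syt1 (log2 difference 1.65 ± 0.25, edgeR adjusted p = 0.00168), and 5 of 10 cycling-cell markers were lower. Of 10 astrocyte markers, 3 were higher and 2 lower. Higher were also 3 of 9 oligodendrocyte lineage and 1 of 3 endothelial markers tested. Lower were 3 of 10 microglia and macrophage markers and 2 of 6 ependymal markers tested. Of all tested genes, 7.87% were called higher and 9% lower. The part of these markers in the differences of the tubulin genes was not tested.

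**Figure D4:**
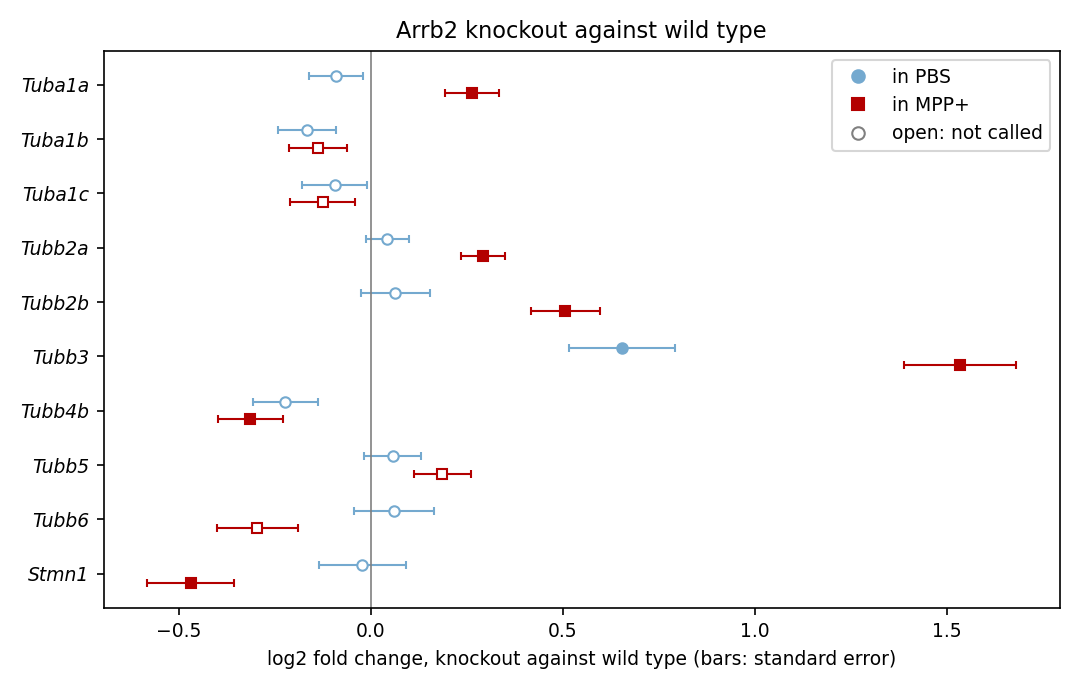
Log2 difference of Arrb2-KO against WT (x axis) with PBS (circles) and MPP+ (squares) for the 10 genes; bars are standard errors and open symbols were not called. Tubb3 lies furthest right in both conditions, at 0.65 with PBS and 1.54 with MPP+.

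The interaction (the change with MPP+ in Arrb2-KO minus that in WT) was called for 0 of the 10 genes in edgeR, against 1.35% of tested genes. It was under an unadjusted p of 0.05 for 6 of the 10, against 17.5% of tested genes. The estimate was largest for Tubb3 (0.88 ± 0.20, edgeR adjusted p = 0.0585), followed in size by Stmn1 (-0.45 ± 0.16, adjusted p = 0.179), Tubb2b (0.44 ± 0.13, adjusted p = 0.109), Tubb6 (-0.36 ± 0.15, adjusted p = 0.24) and Tuba1a (0.35 ± 0.10, adjusted p = 0.102). Its sign was that of a smaller fall in Arrb2-KO for Tubb3, Tubb2b and Tuba1a and of a larger fall for Stmn1 and Tubb6. DESeq2 called 4 of the 10, namely Tubb3, Tubb2b, Tubb2a and Tuba1a, against 1407 of the 14959 genes to which it gave an adjusted p (9.41%). Tubb3 was also called in edgeR without WT MPP+ replicate 1, where Tuba1a was called too, and without Arrb2-KO MPP+ replicate 2.

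The remaining tubulin genes did not all follow. Tubb4a, a brain beta tubulin abundant in oligodendrocytes, held 17.3, 17.9 and 18.2 FPKM in WT with PBS and 2.08, 2.19 and 1.83 FPKM with MPP+, and fell in both genotypes (log2 fold change -3.16 ± 0.12 in WT, edgeR adjusted p = 3.71e-09, and -2.82 ± 0.11 in Arrb2-KO). The summed level of 10 oligodendrocyte lineage markers was 515 to 534 CPM in WT with PBS and 142 to 159.8 CPM with MPP+. Most counts of the list came from Olig1 (103415 over all samples), Cnp (100517) and Olig2 (52774), while Sox10 had 115. Of the 9 markers tested, 0 were called higher and 4 lower with MPP+ in WT, and likewise in Arrb2-KO. In each genotype, 5 were not called. The part of these markers in the change of Tubb4a was not tested. Tubd1, the delta tubulin of centrioles, also fell in WT (log2 fold change -0.95 ± 0.15, edgeR adjusted p = 0.000212) and in Arrb2-KO (-0.75 ± 0.15, edgeR adjusted p = 0.00136). Tubg2, a gamma tubulin, which nucleates microtubules, rose from 0.657, 1.43 and 1.08 FPKM to 5.34, 5.90 and 7.31 FPKM in WT (log2 fold change 2.51 ± 0.27, edgeR adjusted p = 1.05e-05) and by 1.81 ± 0.27 in Arrb2-KO (edgeR adjusted p = 0.000162). Its more abundant copy Tubg1 held 14.2, 15.002 and 15.2 FPKM with PBS and 13.5, 15.3 and 14.9 FPKM with MPP+ in WT, with no call (log2 fold change -0.06 ± 0.11, edgeR adjusted p = 0.679), and was called lower in Arrb2-KO (-0.35 ± 0.11, edgeR adjusted p = 0.0172). That Arrb2-KO call was lost in 2 of the 12 refits that leave out 1 library (edgeR adjusted p up to 0.0926). The interaction of Tubg1 was not called (-0.29 ± 0.15, edgeR adjusted p = 0.34).

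Tuba4a, at 3.05 to 4.71 FPKM in WT with PBS, Tuba8 and Tube1 were not called in either genotype. Tubal3 and Tubb1 had too few counts to be tested. Of the other stathmins, Stmn2, a neuronal growth-cone gene that is also in the neuronal list above, fell in WT and in Arrb2-KO by nearly the same amount (log2 fold changes -1.38 ± 0.13, edgeR adjusted p = 4.56e-06, and -1.37 ± 0.13, edgeR adjusted p = 6.69e-06). Stmn3, with 4 to 31 counts in the WT samples with MPP+, fell in both genotypes (-3.68 ± 0.48, edgeR adjusted p = 5.18e-05, and -2.08 ± 0.44, edgeR adjusted p = 0.00204). The WT value of Stmn3 was -4.36 without WT MPP+ replicate 2, -3.22 without WT MPP+ replicate 3 and -1.63 by limma on log2(FPKM + 1), a call in each case. Stmn4, with 12 to 16 counts there, fell in WT (-1.89 ± 0.46, edgeR adjusted p = 0.00414) and was not called in Arrb2-KO (0.11 ± 0.44, edgeR adjusted p = 0.863); the test of that difference was not called (2.0 ± 0.63, edgeR adjusted p = 0.136).

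The lists of genes that make, modify and use tubulin are read against all tested genes, of which 26.8% were called higher and 28.4% lower with MPP+ in WT, and 23.1% and 24.7% in Arrb2-KO. Of 21 tubulin folding genes, 4 (19%) were called higher and 7 (33.3%) lower with MPP+ in WT, with a median log2 fold change of -0.08 against -0.04 over all tested genes. The prefoldin genes Pfdn2 (0.68 ± 0.08, edgeR adjusted p = 2.68e-05) and Pfdn6 and the cofactor Tbca rose, and the chaperonin subunit genes Cct3 (-0.57 ± 0.07, edgeR adjusted p = 2.03e-05) and Tcp1 and the prefoldin gene Vbp1 fell. Of the 3 autoregulation genes, 0 rose and 2, Scaper and Cnot11, fell in WT (-0.37 ± 0.13 and -0.34 ± 0.09, edgeR adjusted p = 0.0341 and 0.00796), and 0 were called in Arrb2-KO, where Ttc5 itself stood at -0.02 ± 0.07. Ttc5 was not called in WT either. Of 21 modification genes, 4 (19%) rose and 8 (38.1%) fell, with a median of -0.21. The tubulin ligase-like genes Ttll11, Ttll4 and Ttll6 were the largest rises and Agbl3, a deglutamylase gene (-1.54 ± 0.22, edgeR adjusted p = 0.000104), Ttll7 and Tpgs2 the largest falls.

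Of 22 genes of microtubule-binding and plus-end proteins, 9 (40.9%) rose and 10 (45.5%) fell in WT, beside 26.8% and 28.4% of all tested genes, with a median of -0.25. Camsap1, which caps minus ends, rose most (1.68 ± 0.12, edgeR adjusted p = 3.95e-07), with Map1b (0.74 ± 0.05, edgeR adjusted p = 2.52e-07) and the end-binding gene Mapre3. Dclk1 (-1.87 ± 0.07, edgeR adjusted p = 5.61e-09), Mapt, the gene of tau (-1.68 ± 0.35, edgeR adjusted p = 0.00173), and Map1a (-1.63 ± 0.09, edgeR adjusted p = 4.8e-08) fell. Of 10 severing and depolymerising genes, 4 rose, led by the katanin genes Katnal1 and Katna1 and by Kif2a, and 6 fell, led by Kif2c (-3.83 ± 0.21, edgeR adjusted p = 5.18e-08), Fignl1 and Kif24. Of 8 genes of the gamma-tubulin ring complex, 4 rose, with Tubgcp2 at 0.44 ± 0.10 (edgeR adjusted p = 0.00214), and 1, Mzt1, fell. Of 9 stathmin kinase and spindle genes, 0 rose and 7 fell, led by the kinesin genes Kif11 (-4.28 ± 0.20, edgeR adjusted p = 2.27e-08) and Kif23 and by the kinase gene Aurkb. Aurkb and Cdk1, both among these 9, are also in the cycling-cell list, whose summed level is given above. Map2, one of the 22 binding and plus-end genes, is also in the neuronal list. In Arrb2-KO, 4 folding genes rose and 4 fell, 3 modification genes rose and 5 fell, 6 binding and plus-end genes rose and 9 fell, and 4 severing genes rose and 4 fell. There, 2 ring complex genes rose and 0 fell, and 1 stathmin kinase or spindle gene rose and 7 fell.

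**Figure D5:**
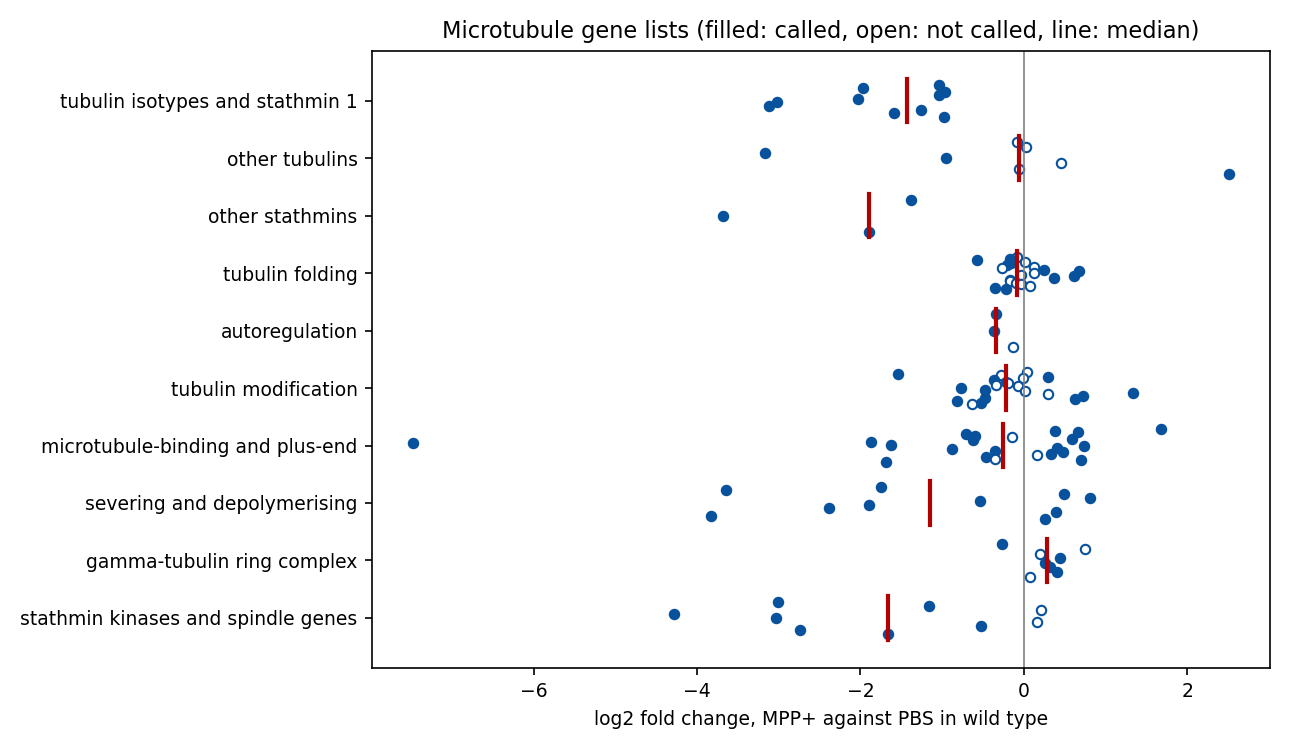
Log2 fold change with MPP+ against PBS in WT (x axis) for each tested gene of the microtubule gene lists (rows); filled points were called, open points not, and red lines are medians. The median of the 10 genes described is -1.43 and that of the folding genes -0.08.

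Over the 12 samples, the isotypes fell into patterns that can be compared by the root mean square difference of centred log2 CPM. The closest pair was Tuba1b with Tuba1c (0.0836), then Tuba1a with Tubb2a (0.106), and the farthest was Tuba1b with Tubb3 (1.09). The coding sequences of Tuba1b and Tuba1c were 97.9% identical. Of the runs of 100 bases in Tuba1b, 48.6% also occurred in Tuba1c. The part of reads that match both Tuba1b and Tuba1c in the closeness of this pair was not tested. The pairs with near-identical coding sequence were not the closest throughout: Tuba1a and Tuba1b differed by 0.450 and Tubb2a and Tubb2b by 0.455. Among 13814 other genes, those most like Tubb2b were Fabp7 (0.109), a fatty acid-binding gene of radial glia and astrocytes, Glul (0.115), the astrocyte glutamine synthetase gene, and Olfml1 (0.153). Those most like Tuba1a were Ramp1, Wdr6 and Rrm1, those most like Stmn1 were Cdkn2c (0.113), a cell cycle inhibitor gene, Galnt17 and Pkdcc, and those most like Tubb3 were Tnfaip6 (0.251), C130074G19Rik and Angpt1, at a larger distance. Fabp7 had a log2 fold change of -3.13 ± 0.09 with MPP+ in WT, beside -3.02 for Tubb2b. Fabp7 was picked for its likeness to Tubb2b over these same 12 samples, so this closeness follows from the choice.

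RefSeq promoters (GRCm38.p6) were found for 7 of the 10 genes: Tubb4b, Tubb3, Tubb2a, Tuba1b, Tuba1a, Tuba1c and Tubb5. The 100 bases before the start are shown for Tubb2a (chr13:34078009-34078108, minus strand) and Tubb4b (chr2:25224703-25224802, minus strand), with CCAAT or GGGCGG on either strand in capitals.
Tubb2a: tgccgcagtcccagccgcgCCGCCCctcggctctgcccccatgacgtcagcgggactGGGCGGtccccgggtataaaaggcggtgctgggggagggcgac
Tubb4b: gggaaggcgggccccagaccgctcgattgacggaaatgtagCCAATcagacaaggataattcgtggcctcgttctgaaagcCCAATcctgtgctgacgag
Within 250 bases before the start, CCAAT on either strand occurred in 5 of the 7 promoters, against 34.5% of 27025 promoters. There were 5 matches in Tubb4b and 0 in both Tubb2a and Tuba1b. GGGCGG on either strand occurred in 5 of 7, against 32.9%. TATAAA occurred in 1 of 7 (Tubb2a), against 13.0%, and CACGTG in 1 (Tubb5), against 6.05%. TTTGAA occurred in 1 (Tubb4b), against 16.3%. TTTCCCGC, TGATGNAAT and TGAGTCA did not occur in these windows, against 0.929%, 0.825% and 4.43% of promoters. A match is a run of letters and not a measured binding site. The part of these motifs in the changes with MPP+ was not tested.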

How the data were processed

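Raw counts per gene and FPKM values were deposited by the authors in a table of 12 samples, per the file headers. The submitters' processing notes name the builds GRCm38 and mm10; no aligner, counting tool or strand setting is given in the sources used here. Counts were whole numbers.

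The 12 libraries were analysed together in edgeR 4.0.16 (R 4.3.3) with glmQLFit and glmQLFTest, 1 coefficient per group and 8 residual degrees of freedom. Of 32742 genes, 21129 passed filterByExpr at a minimum count of 10 and a total of 15; normalization was TMM. Tests were two-sided, with 5 contrasts, each adjusted by Benjamini-Hochberg over all tested genes. Standard errors come from the F statistic. CPM use TMM-scaled library sizes. Levels are compared between genes by FPKM only. Marker and context lists and the 10 genes were chosen with earlier results of these data known. The labels do not say whether replicates are separate cultures or animals, so p-values measure the spread between these samples, which may be technical.

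Named beyond the 10 genes are every other tubulin and stathmin gene, of each list the 3 largest rises and falls called in WT (at least 2 CPM in the higher group), the 3 genes most like each of the 10 in pattern (for some of the 10), Arrb2, and Syt1, Rbfox3, Snap25, Dcx and Ttc5, which were chosen after their values were seen. Sequences were read with Biopython 1.88 from GENCODE M21 and RefSeq. The fitting code was tested on simulated data. Alternatives were other scalings (RLE, total counts), other filters (none; at least 50 counts in 3 samples), DESeq2 1.42.0, limma 3.58.1 on log2(FPKM + 1) and log2(FPKM + 0.1), the groups of a contrast alone, a replicate block, and leaving out each library.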

Additional observations from a re-analysis of the deposited data

How the results depend on the processing

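All 10 genes were called lower with MPP+ in both genotypes under all 9 other settings tried and without each of the 12 libraries. In knockout against wild type with PBS, 2 of the 10 were called with total counts, with limma at either pseudocount and with only the 2 groups, and 0 to 2 when 1 library was left out, with 1109 to 2753 genes called over all. With MPP+, 4 to 7 of the 10 were called over the 9 settings, where Tuba1a was lost in 4 and Tubb4b in 2, only the 2 groups gave 1968 genes, and leaving out 1 library gave 2010 to 4746 genes and 3 to 7 of the 10. For the interaction, 148 genes were called without a filter, 1407 with DESeq2 and 63 to 1553 when 1 library was left out; of the 10, the stricter filter called 1, DESeq2 4 and leaving out 1 library 0 to 2. The cause was not tested. With replicate numbers as a block, which the labels do not tie to a shared animal or day (correlation of same-numbered samples within a genotype 0.0078 to 0.052), the counts were 11153, 9578, 2453 and 3646 genes for the 4 simple contrasts and 32 for the interaction, and 10, 10, 1, 7 and 0 of the 10 genes.
Reversals concerned differences near 0: Tuba8 in wild type with MPP+ without a filter (-0.0037), Tubb2a in knockout against wild type with PBS by total counts (-0.0086) and by limma (-0.0073 and -0.0074), and the interaction of Tuba1c (0.0027 by total counts, 0.019 without a filter, 0.0013 with the stricter filter, 0.011 and 0.0094 by limma). When 1 library was left out, the log2 values with MPP+ in wild type ran over 0 for Tuba4a -0.28 to 0.026, Tuba8 -0.21 to 0.26 and Tubg1 -0.11 to 0.016. They did so with MPP+ in the knockout for Stmn4 -0.16 to 0.42. They did so between genotypes with PBS for Tubb6 -0.065 to 0.11, Tubb5 -0.015 to 0.073, Tuba4a -0.032 to 0.35, Stmn1 -0.22 to 0.050, Tuba8 -0.080 to 0.38, Tubg1 -0.15 to 0.024 and Tubg2 -0.32 to 0.20. They did so between genotypes with MPP+ for Tuba8 -0.41 to 0.086 and Tubb4a -0.0018 to 0.14. They did so for the interaction for Tuba1b -0.042 to 0.13, Stmn2 -0.076 to 0.18 and Tuba1c -0.094 to 0.065. Of the 10 genes, none of these reversals concerned a called change, and the cause was not tested.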
